A study of Mus musculus with 28 samples.

Results

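The genes described here are the conjugating enzymes of the Ugt, Gst and Sult families, measured in dendritic cells sorted from mouse kidney. Members were all genes whose single symbol in the array annotation begins with Ugt and a number, with Gst, a class letter (a, k, m, o, p, t or z) and a number, or with Sult and a number. Each gene is represented by its probeset with the highest mean over all 28 arrays. The rule found 46 of 19272 genes: 11 Ugt, 19 Gst and 16 Sult genes. Ugt1a genes were not analysed here.

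Total RNA of cells sorted by CD45, CD11c and MHCII was amplified, labelled with biotin and hybridised to microarrays. Donor cells carried CD45.2, are labelled BALB/c, and came from the medulla and the cortex of kidney allografts taken 3 days after transplantation (3 arrays for each region). Host cells carried CD45.1, are labelled C57BL/6, and were sorted from the medulla and the cortex of the same grafts (3 arrays for each region). Homeostatic cells, meaning cells of healthy kidneys, came from the medulla and the cortex of BALB/c and of C57BL/6 mice (4 arrays for each strain and region). The labels tie the regions of a kidney, and the donor and host cells of a graft, to one another by a mouse number, with 11 numbers in all. Donor and host cells that share a number are taken to come from 1 graft, which holds cells of both the donor and the host animal.

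UDP-glycosyltransferases (Ugt) transfer a sugar, most often glucuronic acid, onto lipophilic molecules in the endoplasmic reticulum. Glutathione S-transferases (Gst) join glutathione to electrophiles and lipid peroxidation products, and cytosolic sulfotransferases (Sult) transfer sulfate from the donor PAPS onto phenols, amines and steroids. In the kidney these enzymes are best known from tubule epithelium, above all the proximal tubule, where their products are passed to export pumps. Levels below are log2 array signal, a difference of 1 being a doubling of signal, and levels of different genes are not set against each other.

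The 250 bases before the start of 4 Ugt2b genes are shown because these genes lie near each other and resemble each other in sequence. Ugt2b38, Ugt2b37 and Ugt2b5 were lower in medulla than in cortex in the host cells of grafts, and Ugt2b36 was too dim to test. Sequences are from the RefSeq promoter table of GRCm38.p6, which held a window for 42 of the 46 members, and are read 5′ to 3′ on the gene's strand. The windows are Ugt2b38 (chr5:87424204-87424453), Ugt2b37 (chr5:87254789-87255038), Ugt2b5 (chr5:87140341-87140590) and Ugt2b36 (chr5:87092556-87092805), all on the minus strand.
Ugt2b38: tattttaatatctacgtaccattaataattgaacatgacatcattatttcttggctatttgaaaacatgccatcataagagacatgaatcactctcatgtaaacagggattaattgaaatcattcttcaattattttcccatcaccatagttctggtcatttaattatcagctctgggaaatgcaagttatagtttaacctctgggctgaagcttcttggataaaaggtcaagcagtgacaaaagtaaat
Ugt2b37: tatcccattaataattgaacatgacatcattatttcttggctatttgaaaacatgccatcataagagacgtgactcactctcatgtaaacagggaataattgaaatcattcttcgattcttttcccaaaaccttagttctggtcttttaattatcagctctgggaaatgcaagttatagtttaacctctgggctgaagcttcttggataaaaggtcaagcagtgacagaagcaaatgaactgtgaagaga
Ugt2b5: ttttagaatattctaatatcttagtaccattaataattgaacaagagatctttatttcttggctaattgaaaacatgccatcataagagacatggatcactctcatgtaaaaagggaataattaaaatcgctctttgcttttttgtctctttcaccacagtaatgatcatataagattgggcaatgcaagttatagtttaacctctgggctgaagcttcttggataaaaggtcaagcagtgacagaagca
Ugt2b36: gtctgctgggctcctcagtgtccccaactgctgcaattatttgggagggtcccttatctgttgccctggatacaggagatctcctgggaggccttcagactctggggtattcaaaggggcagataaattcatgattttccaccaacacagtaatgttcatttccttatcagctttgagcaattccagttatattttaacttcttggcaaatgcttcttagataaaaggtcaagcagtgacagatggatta
Over windows running from 250 bases before to 50 bases after the start, Ugt2b38 had 274 identical bases with Ugt2b37 (91.3% of the window), 261 with Ugt2b5 (87.0%) and 207 with Ugt2b36 (69.0%).

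A gene entered the test when its value exceeded the 40th percentile of its own array, 7.26 to 7.62 depending on the array, in at least 3 arrays. This held for 27 of the 46 members (6 Ugt, 17 Gst and 4 Sult genes) among 14346 genes tested. Groups were compared with limma over all 28 arrays, and a gene is said to have passed, risen or fallen when its p-value, adjusted over all genes tested in that comparison by the method of Benjamini and Hochberg, was under 0.05. Over 12 comparisons of groups, 23 of the 27 tested members passed at least once, with 45 calls in all. The array of BALB/c medulla replicate 1 stood apart from its group, with a mean correlation of 0.788 with the other arrays of the group, where the rest lay between 0.848 and 0.950. Markers of dendritic cells (9 genes, among them Itgax, which encodes CD11c) averaged 8.05 to 8.81 in donor medulla, 8.80 to 9.35 in donor cortex, 7.71 to 8.59 in host medulla and 8.52 to 10.89 in host cortex. In homeostatic cells the same mean was 9.59 to 9.78 in BALB/c medulla, 10.31 to 10.91 in BALB/c cortex, 10.81 to 11.12 in C57BL/6 medulla and 10.47 to 11.04 in C57BL/6 cortex. In donor medulla 3 of these 9 markers lay under the 40th percentile on every array.

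**Figure D1:**
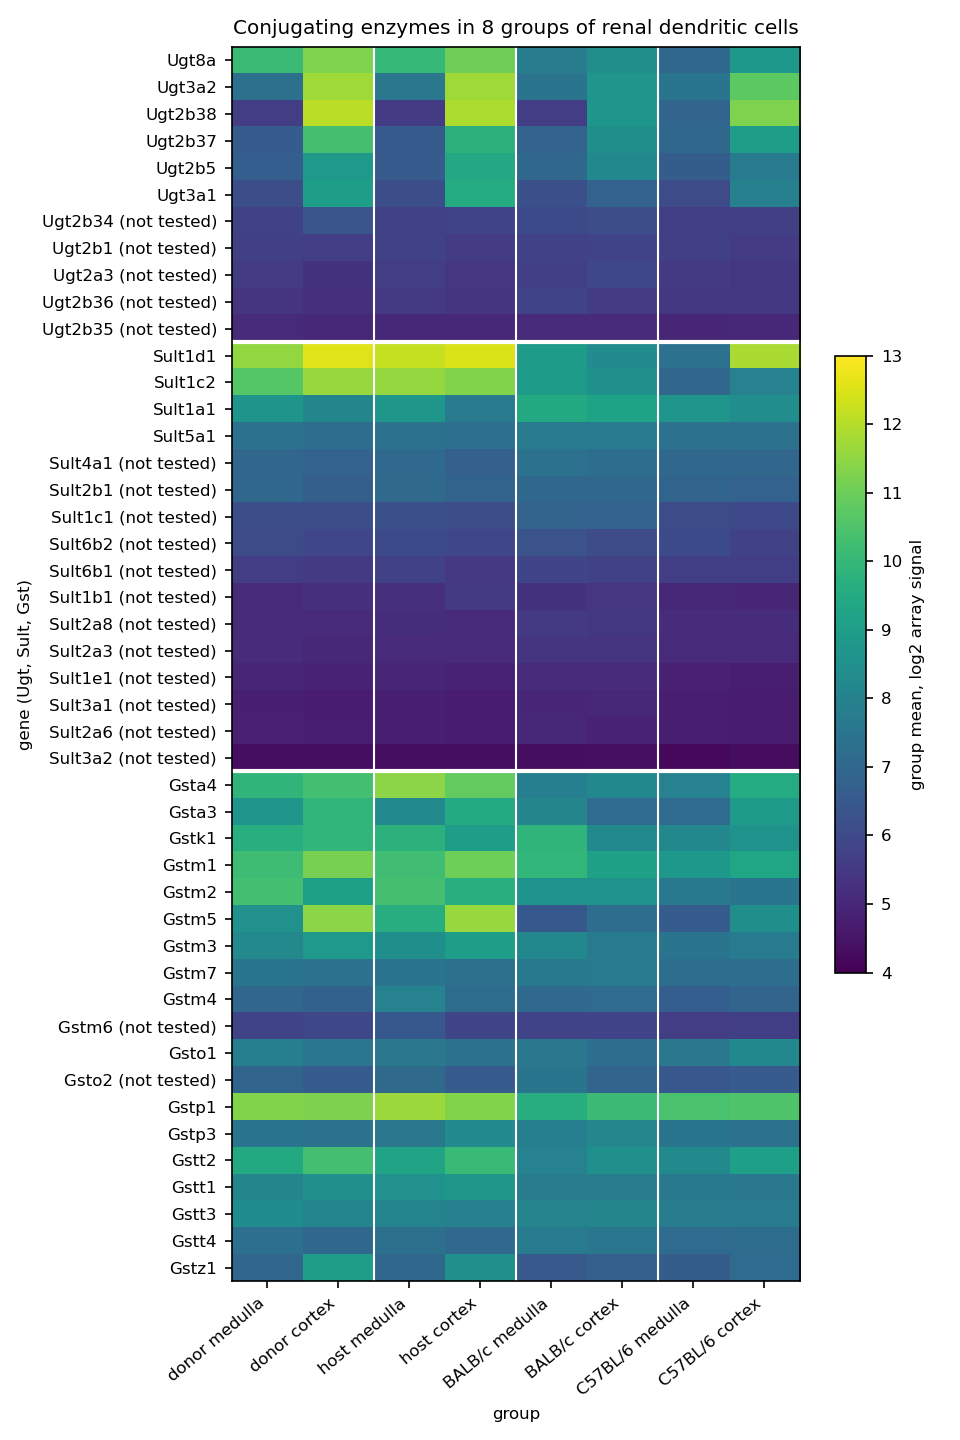
Group means of the 46 conjugating enzymes, as log2 array signal (colour scale from 4 to 13), with groups in columns and genes in rows by family (Ugt at the top, then Sult, then Gst). Within the Ugt block, Ugt3a2, Ugt2b38, Ugt2b37, Ugt2b5 and Ugt3a1 are each darker in the graft medulla columns than in the graft cortex columns, Ugt3a1 averages only 6.83 in BALB/c cortex, and the 19 genes marked as not tested stay dark in every group.

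The 19 members that were not tested were dim on nearly all arrays. They include 12 Sult genes, among them the estrogen sulfotransferase Sult1e1 (4.69 to 5.57 over the 28 arrays), Sult1b1 (4.95 to 5.96) and the hydroxysteroid sulfotransferases Sult2a3, Sult2a6 and Sult2a8, whose highest value on any array was 6.06. The Ugt genes among them were Ugt2b34, Ugt2b1, Ugt2a3, Ugt2b36 and Ugt2b35, with values from 4.87 to 6.75. Gstm6 and Gsto2 completed the set. Gsto2 exceeded the percentile on 2 arrays, with a highest value of 9.19, and Sult4a1 on 1 array. Tested and untested genes were direct neighbours on the chromosome. In the RefSeq gene order Ugt2b34, Ugt2b1, Ugt2b35, Ugt2b36, Ugt2b5, Ugt2b37, Ugt2a3 and Ugt2b38 follow each other, and Sult1d1 lies between Sult1b1 and Sult1e1. Ugt2b36 ranged from 5.07 to 6.39 over the arrays and exceeded the 40th percentile on 0 of them.

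The comparison of medulla with cortex inside the graft asked whether conjugating enzymes differ with the region from which the dendritic cells were taken. In donor cells 3 of 27 tested members fell and 0 rose, where 2.54% of all tested genes passed and 1.92% were lower. In host cells 5 fell and 1 rose, where 2.43% of all tested genes were lower and 1.86% higher. All that fell were Ugt genes of the 2b and 3a families. Ugt2b5 and Ugt3a1, which fell in host cells, had entered the test through cortex arrays alone. Without host medulla replicate 1 the host count was 3, all lower. Fewer cells of a type and less RNA per cell cannot be told apart in these sorted bulk samples. The median difference over all 46 members was 0.02 in donor and 0.09 in host cells, beside 0.13 and 0.11 over all 19272 genes. These medians include the members that were too dim to test, so they cannot show whether the tested members fell as a whole.

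Ugt2b38 belongs to the UGT2B family, whose enzymes glucuronidate steroids, bile acids and drugs. Its levels were 5.64, 5.38 and 5.84 in donor medulla, against 12.10, 11.69 and 12.45 in donor cortex. In host cells they were 5.84, 5.40 and 5.44 in medulla, against 11.38, 11.94 and 12.35 in cortex. The regions did not overlap in either kind of cell, and the medulla was lower in 3 of 3 grafts in both. The difference was -6.46 ± 1.07 (SE) in donor cells, an 88.2-fold lower signal (limma adjusted p = 7.2e-04), and -6.33 ± 1.07 in host cells (limma adjusted p = 6.3e-04). Both calls held without each array in turn, with differences of -6.66 to -6.28 in donor and -6.59 to -6.10 in host cells. On every graft medulla array Ugt2b38 lay under the percentile used for entry to the test. The size of its differences, and of the fold, therefore depends on a dim medulla signal.

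Ugt3a2 is the mouse relative of a human enzyme known to transfer glucose and xylose rather than glucuronic acid. It stood at 7.16, 7.65 and 7.21 in donor medulla, against 11.76, 11.63 and 11.74 in donor cortex. In host cells it stood at 7.46, 7.84 and 7.47 in medulla, against 11.35, 12.01 and 11.78 in cortex. Again no medulla array reached a cortex array of the same cells. The differences were -4.37 ± 0.68 in donor cells (limma adjusted p = 3.5e-04) and -4.12 ± 0.68 in host cells (limma adjusted p = 4.9e-04), and both calls held without each array in turn.

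Ugt2b37, the gene whose promoter window is closest to that of Ugt2b38, was also lower in the medulla of the graft. Its levels were 6.98, 6.17 and 6.67 in donor medulla, against 10.54, 10.20 and 10.28 in donor cortex, and 6.49, 6.26 and 6.91 in host medulla, against 9.34, 10.76 and 9.30 in host cortex. The groups did not overlap, and the differences were -3.73 ± 0.83 in donor cells (limma adjusted p = 0.012) and -3.25 ± 0.83 in host cells (limma adjusted p = 0.023). Like Ugt2b38, Ugt2b37 lay under the percentile used for entry to the test on every graft medulla array. The donor call was lost without replicate 1 of donor cortex or replicate 2 of donor medulla, with adjusted p at most 0.053, and the host call without host cortex replicate 2 or host medulla replicate 1 or 2, with adjusted p at most 0.13. Probe sequences were not examined, so part of a Ugt2b probeset's signal may come from another Ugt2b gene, which the array values cannot separate.

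Ugt2b5 and Ugt3a1, whose human relative uses N-acetylglucosamine as its sugar, passed in host cells. Ugt2b5 ranged from 6.52 to 6.61 in host medulla, against 7.89 to 11.12 in host cortex, a difference of -2.87 ± 0.67 (limma adjusted p = 0.012). The call was lost without host cortex replicate 3, at -2.03 and adjusted p = 0.082. Ugt3a1 ranged from 6.08 to 6.22 in host medulla, against 8.51 to 11.45 in host cortex, a difference of -3.35 ± 0.87 (limma adjusted p = 0.026). Its call was lost without host cortex replicate 2 or without any one host medulla array, with adjusted p at most 0.21. In donor cells the same differences were -2.17 ± 0.67 and -2.83 ± 0.87 (limma adjusted p = 0.098 for both). In both genes every donor medulla array lay below every donor cortex array. Ugt2b5 exceeded the percentile used for entry to the test on 11 arrays and Ugt3a1 on 8, all of them cortex arrays. Both genes thus entered the test only through the region in which they were higher. The size of their differences depends on a dim medulla signal.

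Ugt8a was the tested Ugt gene with the smallest regional difference in the graft. It encodes the enzyme that makes galactosylceramide, the precursor of sulfatide in myelin and kidney. Its difference was -1.15 ± 0.61 in donor and -1.06 ± 0.61 in host cells (limma adjusted p = 0.41 and 0.48), and its regions overlapped in both.

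**Figure D2:**
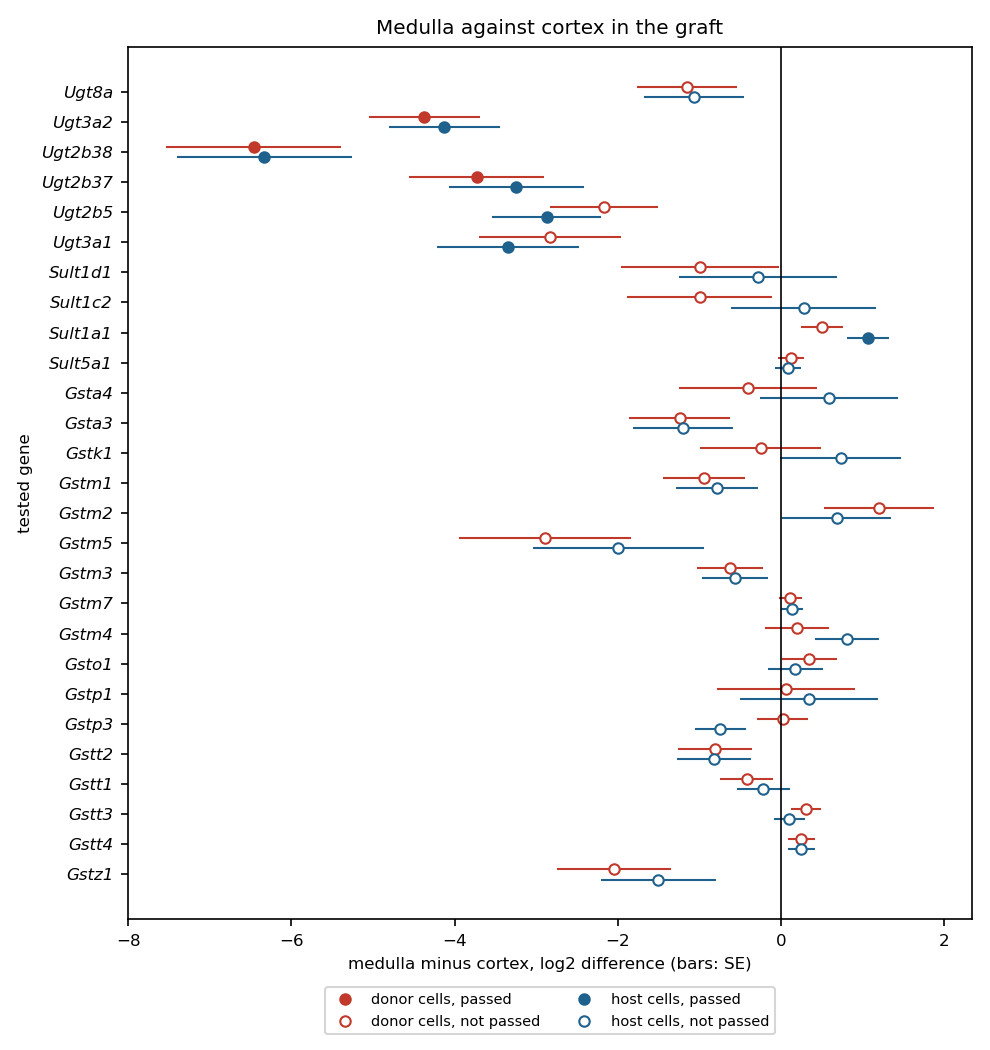
Medulla minus cortex differences of the 27 tested members in graft cells, as log2 difference on the horizontal axis with bars of 1 SE, donor cells in red above host cells in blue, and filled points for genes that passed. The points of Ugt2b38, Ugt3a2 and Ugt2b37 lie left of -3 in both kinds of cell, and the Gst points lie between -3 and 1.3.

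Of the 4 tested sulfotransferases, 1 passed between the graft regions, Sult1a1 in host cells, and it was higher in the medulla. Sult1a1, which sulfates simple phenols and many drugs, was at 8.85, 8.74 and 8.74 in host medulla, against 7.79, 7.66 and 7.68 in host cortex. The regions did not overlap, and the medulla was higher in 3 of 3 grafts by 1.06 ± 0.26 (limma adjusted p = 0.016). That call was lost without host cortex replicate 2 or host medulla replicate 1, at 1.04 and 1.03 with adjusted p at most 0.059. In donor cells the difference was 0.51 ± 0.26 (limma adjusted p = 0.39), also higher in the medulla in 3 of 3 grafts. Sult1d1, Sult1c2 and Sult5a1 differed by -1.0 to 0.28 between graft regions and did not pass. In donor cells Sult1d1 was lower in the medulla of 3 of 3 grafts, by -1.30 to -0.49 within a graft, and Sult1c2 also in 3 of 3, by -1.28 to -0.77.

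No Gst gene passed between the graft regions in limma. Before adjustment, 7 of the 27 members had a p under 0.05 in donor and 8 in host cells. Gstz1, the maleylacetoacetate isomerase of tyrosine breakdown, was among these in both, at -2.04 ± 0.70 in donor and -1.50 ± 0.70 in host cells (limma adjusted p = 0.16 and 0.34). Gstm5, of the mu class, differed by -2.89 ± 1.05 in donor cells (limma adjusted p = 0.20), with widely spread medulla levels of 5.98, 8.56 and 11.07. Gstm2, Gstm4, Gstm7, Gsto1, Gstp1, Gstt3, Gstt4 and Sult5a1 had positive differences in both kinds of cell, from 0.06 to 1.20, and did not pass.

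Most markers of the proximal tubule were also lower in the graft medulla. Of 15 such markers on the array, 12 fell in the medulla of donor cells and 12 in the medulla of host cells. Their mean ranged from 7.26 to 7.47 in donor medulla, against 10.59 to 11.57 in donor cortex, and from 7.22 to 8.00 in host medulla, against 10.28 to 11.66 in host cortex. In donor medulla 5 and in host medulla 6 of the 15 lay under the 40th percentile on every array, against 0 in either cortex. Lrp2, which encodes the endocytic receptor megalin, differed by -5.18 ± 0.60 in donor and -4.93 ± 0.60 in host cells, and Cubn, which encodes cubilin, by -4.82 ± 0.39 and -4.09 ± 0.39. Their part in the Ugt differences was not tested. Of 11 epithelium-wide markers, 2 passed as higher in donor medulla and 3 in host medulla, and of 13 leukocyte-wide markers 0 fell in donor and 5 in host medulla.

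**Figure D3:**
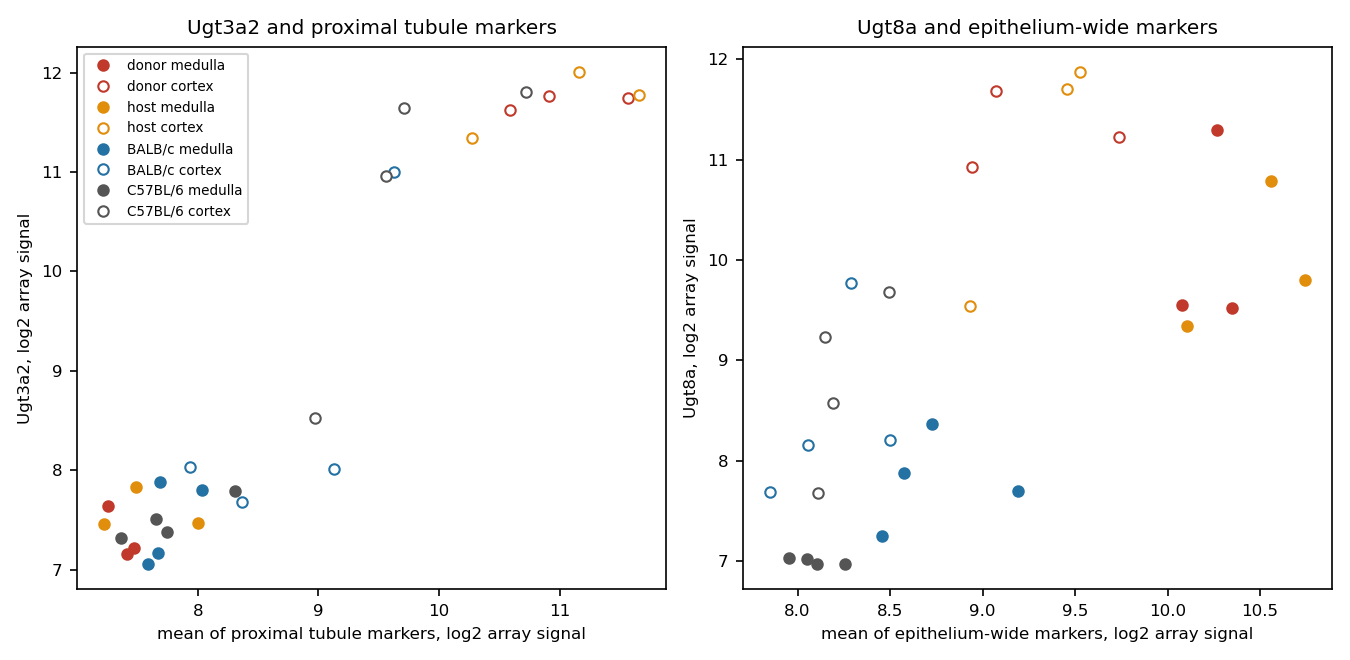
Single arrays plotted by marker mean and gene level, all in log2 array signal. On the left, Ugt3a2 is set against the mean of 15 proximal tubule markers, with graft medulla arrays at the lower left and graft cortex arrays at the upper right. On the right, Ugt8a is set against the mean of 11 epithelium-wide markers, where all C57BL/6 medulla arrays lie near 7 and graft arrays above 9.

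In homeostatic kidneys the same region comparison gave fewer calls. In C57BL/6 cells 2 of 27 members fell and 0 rose in the medulla, where 0.153% of tested genes passed and 0.146% were lower. Ugt3a2 was at 7.38, 7.50, 7.79 and 7.31 in C57BL/6 medulla, against 11.81, 10.96, 8.53 and 11.65 in C57BL/6 cortex, a difference of -3.24 ± 0.59 (limma adjusted p = 0.018). Sult1d1, a sulfotransferase known in mouse kidney for sulfating catecholamines, was at 7.56, 7.06, 9.09 and 5.93 in C57BL/6 medulla, against 12.51, 11.67, 11.45 and 11.78 in C57BL/6 cortex, a difference of -4.44 ± 0.84 (limma adjusted p = 0.023). Neither gene overlapped between regions, and both were lower in the medulla in 4 of 4 mice. Each call was lost without any one of 6 of the 8 arrays (cortex replicates 1, 2 and 4 and medulla replicates 1, 2 and 4), with adjusted p at most 0.10 for Ugt3a2 and 0.15 for Sult1d1. Proximal tubule markers, of which 4 of 15 fell, averaged 7.37 to 8.31 in C57BL/6 medulla, against 8.97 to 10.72 in C57BL/6 cortex, and their part was not tested.

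Ugt2b38 illustrates how single arrays bear on the homeostatic result. It was at 5.78, 6.06, 10.33 and 5.62 in C57BL/6 medulla, against 12.15, 11.32, 9.89 and 11.74 in C57BL/6 cortex. Medulla replicate 3 alone overlapped the cortex, and the difference of -4.32 ± 0.93 did not pass (limma adjusted p = 0.062). Without C57BL/6 medulla replicate 3, 3 of 27 members and 40 of all tested genes passed, and without C57BL/6 cortex replicate 3, 3 members and 55 genes.

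In BALB/c cells no member passed between the regions in limma, where 0.0697% of tested genes did, and 4 members had an unadjusted p under 0.05. Ugt2b38 was at 5.64, 5.66, 5.48 and 5.75 in BALB/c medulla, against 11.77, 6.68, 9.85 and 6.64 in BALB/c cortex. Every medulla array lay below every cortex array, but the cortex arrays lay far apart, and the difference of -3.10 ± 0.93 did not pass (limma adjusted p = 0.32). Ugt3a2 was at 7.16, 7.05, 7.88 and 7.80 in BALB/c medulla, against 11.00, 7.68, 8.02 and 8.03 in BALB/c cortex, where cortex replicate 2 lay inside the medulla range and replicates 3 and 4 lay just above it. BALB/c cortex replicate 1, at 11.00 for Ugt3a2, was also the highest of its group in Ugt2b37 (11.96), Ugt2b5 (10.51), Sult1d1 (11.58), Sult1c2 (11.15) and Ugt8a (9.77). The proximal tubule mean of that group reached 9.62, on the same array. Leaving out BALB/c cortex replicate 1 or BALB/c medulla replicate 1 left the count of members at 0.

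**Figure D4:**
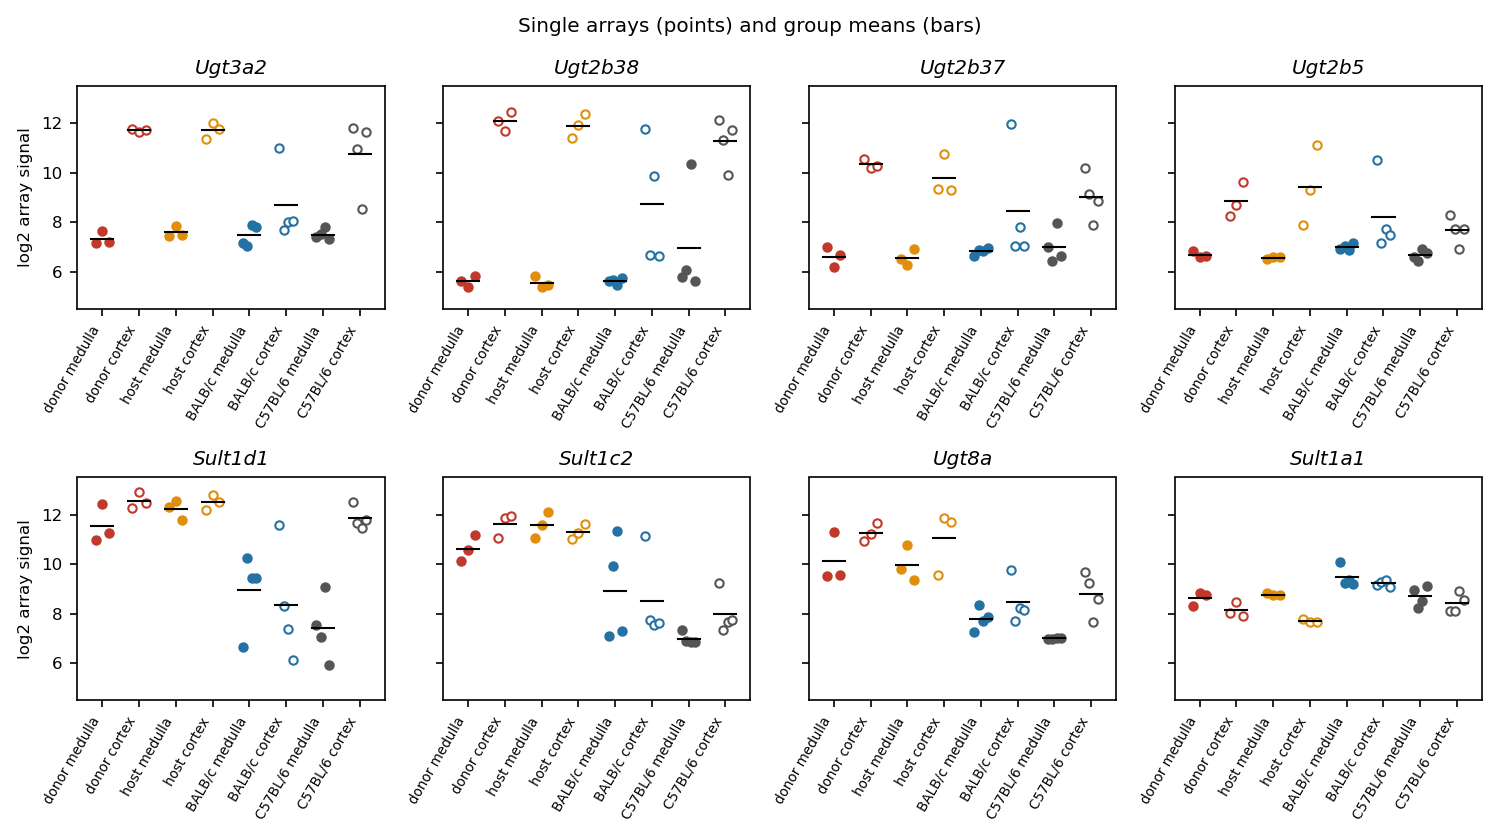
Levels of 8 conjugating enzymes on every array, as log2 array signal, with points for arrays, filled for medulla and open for cortex, and bars for group means. Ugt3a2 and Ugt2b38 separate by region in the graft, Sult1d1 and Sult1c2 are high in all graft groups, and the Ugt8a means are higher in graft groups than in homeostatic groups of the same region.

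The comparison of donor cells with homeostatic BALB/c cells asked what differs in cells of the transplanted kidney from those of the resting kidney of the same strain label. In the cortex 14 of 27 tested members passed, 11 higher and 3 lower in donor cells. Of all tested genes 7.91% were higher and 16.1% lower. Higher were Ugt2b38, Ugt3a2, Ugt8a, Sult1c2, Sult1d1, Gsta3, Gstm1, Gstm3, Gstm5, Gstt2 and Gstz1, by 1.17 to 4.23, and lower were Gstt4, Sult1a1 and Sult5a1, by -1.08 to -0.50. The 3 lower members did not exceed the share of 16.1% over all tested genes. The median difference was -0.03 over all 46 members and -0.24 over all 19272 genes. Without BALB/c cortex replicate 1 the count was 18 of 27, with 3241 of all tested genes passing, and without donor cortex replicate 2 it was 9 of 27, with 1500.

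Gsta3, an alpha-class enzyme known in mice for detoxifying aflatoxin epoxide, was at 10.27, 9.52 and 10.01 in donor cortex, against 7.17, 7.01, 7.12 and 7.34 in BALB/c cortex. The groups stood well apart, with a difference of 2.77 ± 0.57 (limma adjusted p = 0.0022), and the call held without each array in turn. Gstm1, a mu-class enzyme that detoxifies electrophiles, was at 11.92, 10.93 and 10.58 in donor cortex, against 9.76, 8.38, 9.24 and 9.26 in BALB/c cortex. It also did not overlap, and rose by 1.98 ± 0.47 (limma adjusted p = 0.0052). Gstm5 had the largest difference of the Gst genes, 4.23 ± 0.98 (limma adjusted p = 0.0047), with 10.96 to 11.96 in donor cortex, against 6.13 to 9.36 in BALB/c cortex. Gstt2 of the theta class rose by 1.79 ± 0.42 (limma adjusted p = 0.0052). Gstz1 rose by 2.25 ± 0.66 (limma adjusted p = 0.017), but its donor values were 8.45, 7.51 and 11.07, and without donor cortex replicate 3 the difference was 1.22 with an adjusted p of 0.12. Gstm3 rose by 1.17 ± 0.38 (limma adjusted p = 0.031), and its second probeset did not bear this out: with the mean of both probesets the difference was 0.30 (limma adjusted p = 0.36). The Gstm3 call was also lost without any one of donor cortex replicates 1 and 2 and BALB/c cortex replicates 2 to 4, with adjusted p at most 0.15.

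Sult1d1 stood at 12.26, 12.90 and 12.48 in donor cortex, against 11.58, 8.32, 7.38 and 6.14 in BALB/c cortex. All donor arrays exceeded all BALB/c arrays, and the difference was 4.19 ± 0.91 (limma adjusted p = 0.0030). Sult1c2, a sulfotransferase of phenols, was at 11.05, 11.85 and 11.95 in donor cortex, against 11.15, 7.75, 7.54 and 7.64 in BALB/c cortex, a difference of 3.10 ± 0.83 (limma adjusted p = 0.011). BALB/c cortex replicate 1 alone overlapped the donor arrays, and the call was lost without donor cortex replicate 2, at 2.98 and adjusted p = 0.051. Sult1a1 was lower, at 8.04, 8.49 and 7.89 in donor cortex, against 9.15, 9.26, 9.38 and 9.09 in BALB/c cortex, a difference of -1.08 ± 0.24 (limma adjusted p = 0.0035). Here the groups did not overlap, and each was narrow.

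Ugt8a was at 10.92, 11.22 and 11.68 in donor cortex, against 9.77, 7.69, 8.21 and 8.16 in BALB/c cortex, with no overlap and a difference of 2.82 ± 0.57 (limma adjusted p = 0.0019). Ugt3a2 rose by 3.03 ± 0.64 (limma adjusted p = 0.0025), and its donor cortex arrays exceeded all BALB/c cortex arrays. Ugt2b38 rose by 3.35 ± 1.00 (limma adjusted p = 0.020), with the BALB/c replicate 1 value of 11.77 inside the donor range, and lost the call without any one of donor cortex replicates 1 and 2 and BALB/c cortex replicates 2 and 4, with adjusted p at most 0.076. Proximal tubule markers rose in 10 of 15 cases in this comparison, averaging 10.59 to 11.57 in donor cortex, against 7.93 to 9.62 in BALB/c cortex, and epithelium-wide markers in 5 of 11. Dendritic cell markers fell in 4 of 8 tested cases, leukocyte-wide markers in 1 of 13 and macrophage markers in 1 of 6. The part of all these markers in the Ugt, Gst and Sult differences was not tested. Gstt4 and Sult5a1 fell by 0.52 and 0.50, differences that did not pass after a second quantile normalization (limma adjusted p = 0.13 and 0.11). Both were also lost without donor cortex replicate 1 or 2 or BALB/c cortex replicate 3, and Sult5a1 without BALB/c cortex replicate 4.

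In the medulla only Ugt8a passed of the 27 members between donor and BALB/c cells, where 3.18% of tested genes passed and 1.73% were higher. It was at 9.52, 11.30 and 9.56 in donor medulla, against 7.25, 8.37, 7.70 and 7.88 in BALB/c medulla. The groups did not overlap, and the difference was 2.33 ± 0.57 (limma adjusted p = 0.030). The call was lost without donor medulla replicate 1 or 2 or BALB/c medulla replicate 1 or 4, with differences of 1.74 to 2.63 and adjusted p at most 0.21. The count of members ran from 0, without any one of those arrays, to 4, without BALB/c medulla replicate 3. Epithelium-wide markers rose in 6 of 11 cases here, averaging 10.08 to 10.35 in donor medulla, against 8.46 to 9.19 in BALB/c medulla. Dendritic cell markers fell in 1 of 8 tested cases and macrophage markers in 1 of 6. The part of these markers in the Ugt8a difference was not tested. Sult1d1 differed by 2.60 ± 0.91 (limma adjusted p = 0.11), at 10.96, 12.41 and 11.28 in donor medulla, against 6.67, 10.23, 9.45 and 9.43 in BALB/c medulla.

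The corresponding comparison for host cells used homeostatic C57BL/6 cells, the strain label of the host. In the medulla 6 of 27 members passed, all higher in host cells, where 11.5% of tested genes passed and 6.27% were higher. In the cortex 4 of 27 passed, again all higher, where 4.14% of tested genes passed and 2.01% were higher. Ugt8a and Sult1c2 rose in both regions. In the cortex comparison 4 of 15 proximal tubule markers rose, averaging 10.28 to 11.66 in host cortex, against 8.97 to 10.72 in C57BL/6 cortex, and 3 of 11 epithelium-wide markers rose, averaging 8.93 to 9.53 in host cortex, against 8.11 to 8.49 in C57BL/6 cortex. Dendritic cell markers fell in 3 of 8 cases there, and the part of these markers in the cortex calls was not tested. The median over all 46 members was 0.12 in medulla and 0.20 in cortex, beside 0.06 and -0.01 over all genes.

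Sult1d1 was at 12.33, 12.55 and 11.78 in host medulla, against 7.56, 7.06, 9.09 and 5.93 in C57BL/6 medulla. The host arrays lay above all C57BL/6 arrays, and the difference was 4.81 ± 0.91, a 28.1-fold higher signal (limma adjusted p = 7.8e-04). In the cortex the same gene was high in both, at 12.18, 12.80 and 12.52 in host cells, against 12.51, 11.67, 11.45 and 11.78 in C57BL/6 cells, and the difference of 0.65 ± 0.91 did not pass (limma adjusted p = 0.92). The change of its regional difference, host minus C57BL/6, was 4.16 ± 1.28 and did not pass (limma adjusted p = 0.18).

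Sult1c2 was at 11.07, 11.57 and 12.09 in host medulla, against 7.33, 6.89, 6.88 and 6.84 in C57BL/6 medulla, a difference of 4.59 ± 0.83 (limma adjusted p = 5.0e-04). It was at 11.00, 11.28 and 11.63 in host cortex, against 9.25, 7.33, 7.66 and 7.73 in C57BL/6 cortex, a difference of 3.31 ± 0.83 (limma adjusted p = 0.022). Neither region overlapped, and the cortex call was lost without any one of C57BL/6 cortex replicates 2 to 4 or host cortex replicates 2 and 3, with adjusted p at most 0.099.

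Ugt8a was at 9.81, 10.79 and 9.34 in host medulla, against 6.97, 6.97, 7.03 and 7.02 in C57BL/6 medulla, a difference of 2.98 ± 0.57 (limma adjusted p = 8.7e-04). It was at 9.55, 11.88 and 11.71 in host cortex, against 9.68, 9.23, 7.68 and 8.58 in C57BL/6 cortex, a difference of 2.25 ± 0.57 (limma adjusted p = 0.023). The medulla groups stood far apart, while host cortex replicate 1 lay inside the C57BL/6 range. The cortex call was lost without host cortex replicate 2 or 3 or C57BL/6 cortex replicate 3 or 4, with adjusted p at most 0.17.

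Among Gst genes, Gsta4, which conjugates the lipid peroxidation product 4-hydroxynonenal, ranged from 11.14 to 11.81 in host medulla, against 7.26 to 8.81 in C57BL/6 medulla. It rose by 3.45 ± 0.79 (limma adjusted p = 0.0045). Gstm2 rose by 2.74 ± 0.63 (limma adjusted p = 0.0044) and Gstm4 by 1.28 ± 0.37 (limma adjusted p = 0.023), both mu-class enzymes. The Gstm4 values overlapped between groups, and its call was lost without host medulla replicate 1 or 2 or C57BL/6 medulla replicate 2 or 4. In the cortex Gstm1 rose by 1.73 ± 0.47 (limma adjusted p = 0.035), at 10.12, 11.42 and 11.52 in host cells, against 10.26, 8.95, 9.15 and 8.79 in C57BL/6 cells, with 1 array of each overlapping. Gstt1 of the theta class rose by 1.16 ± 0.31 (limma adjusted p = 0.030). Both cortex calls were lost without host cortex replicate 2 or 3 or any one of C57BL/6 cortex replicates 2 to 4, and that of Gstt1 also without C57BL/6 cortex replicate 1, with adjusted p at most 0.22. The count of 4 members ran from 0, without host cortex replicate 3 or C57BL/6 cortex replicate 3, to 7, without host cortex replicate 1.

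Ugt2b38, Ugt2b37, Ugt2b5, Ugt3a1 and Ugt3a2 differed by -1.39 to 0.09 between host and C57BL/6 medulla and did not pass. Proximal tubule markers rose in 1 and fell in 1 of 15 cases there, and averaged 7.22 to 8.00 in host medulla, against 7.37 to 8.31 in C57BL/6 medulla. Epithelium-wide markers rose in 11 of 11 cases, averaging 10.11 to 10.74 in host medulla, against 7.95 to 8.26 in C57BL/6 medulla. Leukocyte-wide markers fell in 10 of 13 cases, averaging 8.45 to 9.19 in host medulla, against 11.10 to 11.29 in C57BL/6 medulla, and dendritic cell markers in 7 of 8 tested. The part of these in the rise of Sult1d1, Sult1c2, Ugt8a, Gsta4, Gstm2 and Gstm4 was not tested.

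**Figure D5:**
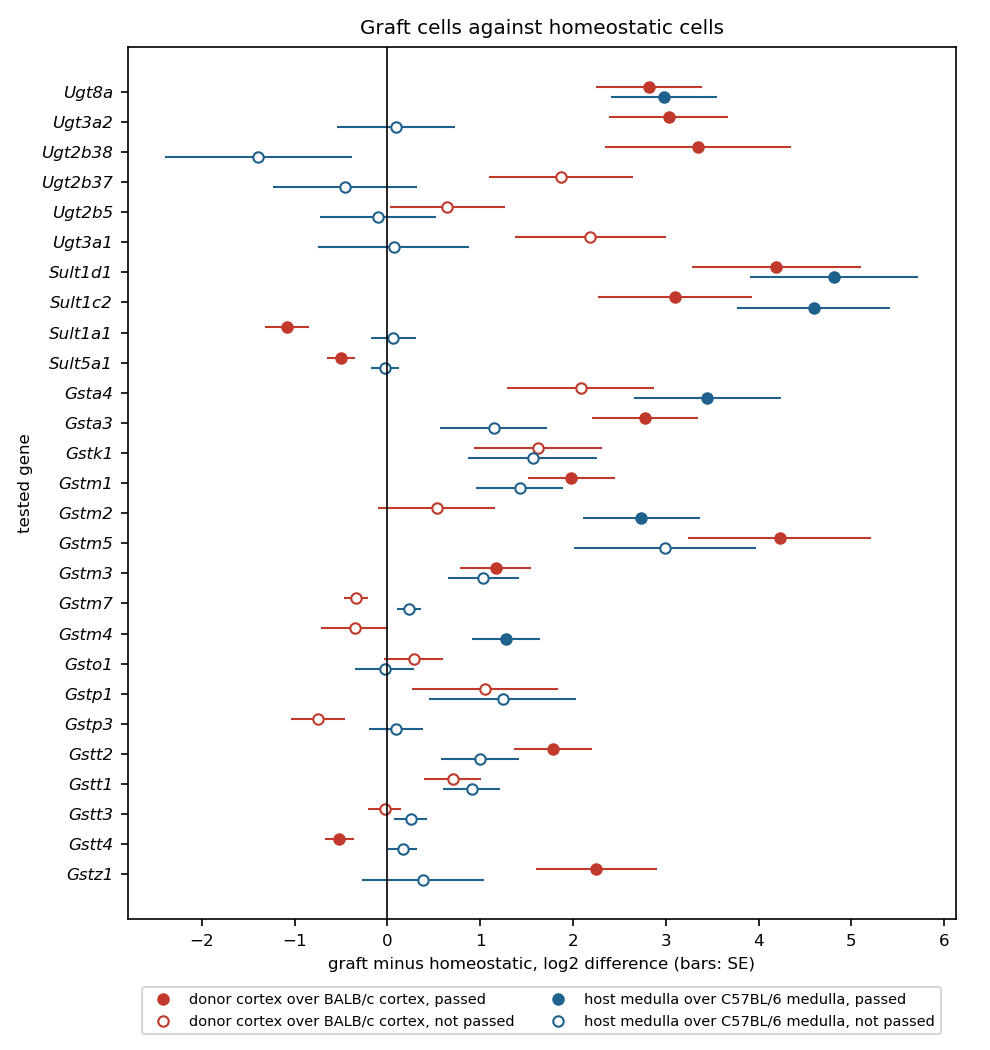
Graft minus homeostatic differences of the 27 tested members, as log2 difference with bars of 1 SE, for donor over BALB/c cortex (red) and host over C57BL/6 medulla (blue), with filled points for genes that passed. Ugt8a, Sult1d1 and Sult1c2 are filled in both colours, and the Ugt2b and Ugt3a points of the host medulla lie near or left of 0.

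Donor and host cells of the same grafts were then compared directly, a comparison in which origin goes with the strain label. No member passed in limma in cortex, where 0.495% of tested genes passed, or in medulla, where 0.592% did. Before adjustment 1 member had a p under 0.05 in each, Gstp3 of the pi class in cortex (-0.91, limma adjusted p = 0.47) and Gstm4 in medulla (-1.01, limma adjusted p = 0.53). Without host cortex replicate 2 the cortex count was 1. For Ugt3a2 the cortex means were 11.71 ± 0.07 in donor and 11.71 ± 0.34 in host cells (SD, n = 3 each), and for Sult1d1 12.55 ± 0.33 and 12.50 ± 0.31. The standard errors of these differences, 0.68 and 0.97, leave room for unequal levels. Within the grafts, some donor minus host differences in medulla had one sign in 3 of 3 grafts, among them Sult1c2 at -1.0 to -0.91, Gstm4 at -1.67 to -0.31 and Sult1d1 at -1.37 to -0.14, genes picked out after their values were seen. With the mouse number as a random block no member passed either.

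The 2 strains were compared in homeostatic kidneys. In cortex 6 of 27 members passed, 2 higher and 4 lower in BALB/c, where 7.96% of tested genes were higher and 1.94% lower. In medulla 3 passed, all higher in BALB/c, where 9.11% of tested genes passed and 6.48% were higher. These comparisons share the BALB/c arrays with those of donor cells, so their values are given side by side and not set against each other. In cortex the median difference was 0.20 over all 46 members, 0.19 over all genes and 0.09 over tested genes. In medulla it was 0.29, 0.23 and 0.17, so the median gene was also higher in BALB/c cells. Bright genes did not share this: leukocyte-wide markers averaged 10.81 in BALB/c and 11.22 in C57BL/6 medulla, and 10.90 and 11.01 in cortex. The SD over all probesets of an array was 1.46 to 1.67 in BALB/c and 1.71 to 1.78 in C57BL/6 cells. The 2 higher members of the cortex lay near the share over all tested genes.

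Lower in BALB/c cortex was Sult1d1, at 11.58, 8.32, 7.38 and 6.14, against 12.51, 11.67, 11.45 and 11.78 in C57BL/6 cortex, a difference of -3.50 ± 0.84 (limma adjusted p = 0.013). BALB/c replicate 1 overlapped the C57BL/6 arrays, and the other 3 lay far below them. The call was lost without BALB/c cortex replicate 3 or 4, with adjusted p at most 0.062. Gsta3 was at 7.17, 7.01, 7.12 and 7.34 in BALB/c cortex, against 9.76, 9.63, 8.10 and 8.06 in C57BL/6 cortex, a difference of -1.73 ± 0.53 without overlap (limma adjusted p = 0.042). Ugt3a2 differed by -2.06 ± 0.59 (limma adjusted p = 0.031) and Gsto1, an omega-class thiol transferase, by -0.96 ± 0.29 (limma adjusted p = 0.041). Each of these 3 calls was lost without at least 5 of the 8 arrays in turn: Gsta3 held without C57BL/6 cortex replicates 3 and 4, Ugt3a2 without BALB/c cortex replicate 1 and C57BL/6 cortex replicate 3, and Gsto1 without BALB/c cortex replicate 1 and C57BL/6 cortex replicates 2 and 4. Proximal tubule markers fell in 3 of 15 cases, averaging 7.93 to 9.62 in BALB/c cortex, against 8.97 to 10.72 in C57BL/6 cortex, and their part was not tested.

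Higher in BALB/c cells of both regions were Sult1a1 and Gstm7. Sult1a1 was at 10.10, 9.24, 9.37 and 9.18 in BALB/c medulla, against 8.96, 8.23, 8.50 and 9.14 in C57BL/6 medulla, a difference of 0.77 ± 0.22 (limma adjusted p = 0.038). In cortex it was at 9.15, 9.26, 9.38 and 9.09 in BALB/c, against 8.12, 8.09, 8.94 and 8.57 in C57BL/6, a difference of 0.79 ± 0.22 (limma adjusted p = 0.028). The strains did not overlap in either region, but each call held in only 4 of 8 fits that left out 1 array. The medulla call was lost without BALB/c medulla replicate 1, where the difference was 0.56 (limma adjusted p = 0.16), or any one of C57BL/6 medulla replicates 1 to 3, and the cortex call without BALB/c cortex replicate 3 or 4 or C57BL/6 cortex replicate 1 or 2, with adjusted p at most 0.10. Gstm7, of the mu class, was at 7.64, 7.69, 7.93 and 7.66 in BALB/c cortex, against 7.29, 7.08, 7.20 and 7.40 in C57BL/6 cortex, a difference of 0.49 ± 0.12 (limma adjusted p = 0.014), which did not pass without BALB/c cortex replicate 3 or C57BL/6 cortex replicate 2. In medulla it was at 7.67, 7.49, 7.62 and 7.73 in BALB/c, against 7.33, 7.14, 7.33 and 7.14 in C57BL/6, a difference of 0.39 ± 0.12 (limma adjusted p = 0.045), and this call held only without BALB/c medulla replicate 2 or 3, with adjusted p at most 0.12 in the other 6 of the 8 fits. Gstt4, of the theta class, was at 7.74, 7.60, 7.57 and 7.83 in BALB/c medulla, against 7.14, 7.34, 7.04 and 7.12 in C57BL/6 medulla, a difference of 0.53 ± 0.14 (limma adjusted p = 0.031). The Gstt4 call was lost without BALB/c medulla replicate 1 or 4 or C57BL/6 medulla replicate 1, 3 or 4, with limma adjusted p at most 0.09. The Gstm7 and Gstt4 levels lie near the 40th percentile of the arrays, and the medulla calls of both were lost after a second quantile normalization. Without BALB/c medulla replicate 1, the array that stood apart, 0 of the 27 members and 230 of all tested genes passed in limma between the medullas. The medulla count was also 0 without C57BL/6 medulla replicate 1 or 3, and the cortex count was 0 without BALB/c cortex replicate 3.

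Whether the regional difference itself changed was tested by interaction contrasts in limma. It changed for 0 of 27 members between donor and BALB/c cells (0.453% of tested genes passed), between host and C57BL/6 cells (0.899%) and between BALB/c and C57BL/6 cells (0.0418%). Before adjustment 5, 3 and 6 members had a p under 0.05. The difference of Ugt3a2 was -3.16 ± 0.90 in donor minus BALB/c cells (limma adjusted p = 0.16), and that of Sult1d1 5.04 ± 1.19 in BALB/c minus C57BL/6 cells (limma adjusted p = 0.31). Without BALB/c cortex replicate 1 the counts were 2 for donor minus BALB/c and 1 for BALB/c minus C57BL/6. A regional fall that passed in 1 kind of cell and not in another is therefore not shown to differ between them.

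Gstp1, of the pi class, passed in none of the comparisons. It was at 11.29, 11.38 and 11.21 in donor medulla, 11.19, 10.44 and 12.06 in donor cortex, 11.17, 11.67 and 12.11 in host medulla, and 11.16, 11.65 and 11.13 in host cortex. In homeostatic cells it was at 10.89, 8.40, 10.49 and 8.69 in BALB/c medulla, 10.93, 10.96, 8.09 and 10.74 in BALB/c cortex, 7.70, 11.80, 11.50 and 10.64 in C57BL/6 medulla, and 10.72, 10.66, 9.80 and 10.86 in C57BL/6 cortex. The lowest graft array was donor cortex replicate 2, while 1 array of BALB/c cortex, 1 of C57BL/6 medulla and 2 of BALB/c medulla lay below 9. Gstk1, Gstp3 and Gstt3, the other tested members without a call, had values of -1.81 to 1.97 over all contrasts. Both ends of this range are interaction contrasts of Gstk1, not differences between groups.

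Other genes of these pathways were followed in lists written for the supply of cofactors, for transport and for other conjugations. Of 8 tested genes of sulfate and PAPS supply, 2 fell in the medulla of donor and 2 in that of host cells. Slc13a1, the sodium sulfate cotransporter of the proximal tubule, differed by -6.57 ± 0.90 in donor cells (limma adjusted p = 8.7e-05) and -6.46 ± 0.90 in host cells (limma adjusted p = 7.8e-05), and its regional difference changed by -5.28 ± 1.19 in donor minus BALB/c cells (limma adjusted p = 0.048). Papss2 and Papss1 make PAPS. Papss2 rose by 2.86 ± 0.63 in donor over BALB/c cortex (limma adjusted p = 0.0034), and Papss1 by 1.87 ± 0.39 in host over C57BL/6 medulla (limma adjusted p = 0.0020).

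Of 4 tested genes of UDP-glucuronate supply, Slc35d1, which carries UDP-sugars into the endoplasmic reticulum, fell in the medulla of donor cells by 1.95 ± 0.46 and of host cells by 2.00 ± 0.46. It rose in donor over BALB/c cortex (1.69 ± 0.43) and in host over C57BL/6 cortex (1.90 ± 0.43). Ugdh, which makes UDP-glucuronate, rose by 1.37 ± 0.49 in donor over BALB/c cortex (limma adjusted p = 0.045). Gusb, the lysosomal enzyme that removes glucuronate, differed by -2.41 ± 0.55 in host minus C57BL/6 medulla (limma adjusted p = 0.0039).

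Glutathione synthesis and breakdown genes rose in 3 of 11 cases in donor over BALB/c cortex. Gss, glutathione synthetase, rose by 2.15 ± 0.36 (limma adjusted p = 5.2e-04) and Gclm, a subunit of the first enzyme of the pathway, by 2.70 ± 0.64 (limma adjusted p = 0.0054). Srxn1, a target of the stress factor NRF2, rose by 2.03 ± 0.26 there (limma adjusted p = 4.4e-05) and by 1.01 ± 0.26 in host over C57BL/6 cortex (limma adjusted p = 0.024). Of 9 tested genes of the NRF2 list, 2 rose in the donor and 1 in the host comparison. Gclm is in both the glutathione and the NRF2 list, so its call is counted in each. Among relatives of the soluble Gst genes, Mgst1, the microsomal enzyme, rose by 4.45 ± 0.75 in donor over BALB/c cortex (limma adjusted p = 5.0e-04) and by 3.08 ± 0.75 in host over C57BL/6 medulla (limma adjusted p = 0.0070). Hpgds and Alox5ap, genes of prostaglandin D2 and leukotriene synthesis in leukocytes, differed by -4.61 ± 0.69 and -3.76 ± 0.51 in host minus C57BL/6 medulla.

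Of 12 other conjugating enzymes tested, 5 fell in the graft medulla in donor cells and 4 in host cells, and the rest did not pass. Acsm2, an acyl-CoA ligase, and Glyat, which joins glycine to the acyl group, differed by -5.37 ± 0.56 and -4.06 ± 0.54 in donor cells, and by -4.99 ± 0.56 and -4.60 ± 0.54 in host cells. Conjugate transporters fell in 6 of 12 cases in each, among them the efflux pump Abcc2 (-2.97 ± 0.52 in donor and -2.52 ± 0.52 in host cells) and the uptake carrier Slco1a1 (-4.79 ± 0.89 and -3.63 ± 0.89). Abcc3 and Abcc5, other efflux pumps, differed by -1.11 ± 0.28 and -1.17 ± 0.28 in host minus C57BL/6 medulla. Hnf4a, a transcription factor of tubule epithelium, was among 9 tested regulators and fell by 2.15 ± 0.49 in the medulla of donor and by 2.51 ± 0.49 in that of host cells. Of these regulators 2 fell in the medulla of donor and 1 in that of host cells.

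Markers of further cell types were counted over the same comparisons. Between medulla and cortex of host cells, 2 of 11 markers of the loop of Henle and distal tubule were higher and 4 lower, 2 of 6 macrophage markers were higher, and 3 of 8 dendritic cell markers, 2 of 6 T and natural killer cell markers, 1 of 11 collecting duct markers and 1 of 5 monocyte and neutrophil markers were lower. In donor cells 2 of 11 loop of Henle and distal tubule markers were lower, with 1 lower among each of the collecting duct, dendritic cell and monocyte and neutrophil markers and 0 of 6 macrophage markers either way. Macrophage markers fell in 5 of 6 cases in host minus C57BL/6 cells of either region, and 4 of 6 were higher in donor than in host cells of either region. Collecting duct markers rose in 5 of 11 cases in host over C57BL/6 medulla and in 2 in donor over BALB/c cortex, and those of the loop of Henle with the distal tubule in 4 and 3 of 11. Urothelium markers fell in 3 of 4 cases in donor minus BALB/c cortex, fibroblast and pericyte markers in 2 of 6, and T and natural killer cell markers in 1 of 6. Monocyte and neutrophil markers fell in 1 of 5 cases there, and of 8 endothelial markers 1 rose and 1 fell. Neither of the 2 tested erythroid markers passed in any comparison. The part of these cell types in the Ugt, Gst and Sult values was not tested.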

How the data were processed

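The deposited values are log2 array signals per probeset, made by the authors with RMA in the R package oligo, per the submitters' processing notes, which give no versions or genome build. Of 22549 probesets, 551 with several symbols and 1352 without a listed symbol were left out, which left 20646 probesets of 19272 genes, with 1 probeset kept for each gene. Genes above the 40th percentile of an array in at least 3 arrays were tested (14346 genes) with limma 3.58.1 in R 4.3.3, with 8 group means over all 28 arrays and Benjamini-Hochberg adjustment over all tested genes within each comparison. Python 3.11.15, pandas 2.3.3 and Biopython 1.88 served for tables and promoter windows. The fit was tested on simulated data. The precision is limited by 3 or 4 arrays in a group.

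The labels give samples a mouse number, shared by the regions of a mouse and, in grafts, by donor and host cells, which are of different animals. The deviations of same-numbered arrays from their group means had mean correlations of 0.155 between the regions in donor cells, 0.106 in host cells, -0.003 in C57BL/6 and -0.006 in BALB/c cells, and of 0.220 between donor and host cells in cortex and 0.171 in medulla. The comparison was therefore repeated with this number as a block.

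The members and the gene lists were chosen with earlier results of these data known. Values on every array are given for members that passed in at least 2 of 12 comparisons and for the member with the highest mean in each family. Other members are given by ranges, apart from some array values of Gstm5, Gstz1 and Ugt2b5, which this rule did not select. Up to 6 genes stand for each list. Alternatives were the block, no filter and a stricter filter, a second quantile normalization, the mean of a gene's probesets, fits of the compared groups alone, and leaving out each array.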

Additional observations from a re-analysis of the deposited data

Results flagged for a closer look

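Among 12 members in the 4 homeostatic groups, single arrays stood far from the other 3 of their group by Dixon's test in 8 of 48 cases. The test flags about 1 in 20 single cases by chance. The 48 cases cannot be set against that rate, because they share the same arrays and most of the genes were chosen by their calls in these data. In BALB/c cortex, replicate 1 was high for Ugt3a2 (11.00, nearest array 8.03), for Ugt2b37 (11.96, nearest 7.82) and for Sult1c2 (11.15, nearest 7.76). In the same group, replicate 3 was high for Gstm7 (7.93, nearest 7.69) and low for Gstp1 (8.09, nearest 10.74). In C57BL/6 medulla, replicate 3 was high for Ugt2b38 (10.33, nearest 6.06) and replicate 1 for Sult1c2 (7.33, nearest 6.89). In C57BL/6 cortex, replicate 3 was high for Gstt4 (7.36, nearest 7.14).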

How the results depend on the processing

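No difference of a passing member changed sign under any alternative. With the mouse number as a random replicate block all 45 member calls held, and the counts were 3 for the C57BL/6 regions and 9 for host against C57BL/6 medulla. Of the 45 calls, 17 held without each array in turn, 35 after a second quantile normalization and 18 when the compared groups were fitted alone.

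Fitted alone, the groups gave 0 passing members between C57BL/6 regions, 5 for donor against BALB/c cortex, 0 for donor against BALB/c medulla, 2 for host against C57BL/6 cortex, 1 for each strain comparison and 1 for the regional difference of host minus C57BL/6 cells. A second quantile normalization gave 1 between C57BL/6 regions, 3 for donor against BALB/c medulla and 1 for the strains in medulla. Without a filter, 4 passed for donor against BALB/c medulla, and 12 and 6 for the strains in cortex and medulla. With a strict filter the strain counts were 1 in cortex and 0 in medulla.

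Leaving out each array, the counts ran from 2 to 4 between donor regions, 3 to 6 between host regions, 0 to 3 between C57BL/6 regions and 0 to 0 between BALB/c regions. They ran from 9 to 18 for donor against BALB/c cortex, 0 to 4 in medulla, 0 to 7 for host against C57BL/6 cortex and 5 to 8 in medulla. For donor against host they ran from 0 to 1 in cortex and 0 to 0 in medulla, for the strains from 0 to 7 in cortex and 0 to 4 in medulla, and for the regional differences from 0 to 2 (donor minus BALB/c), 0 to 0 (host minus C57BL/6) and 0 to 1 (BALB/c minus C57BL/6).

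Over all tested genes, fitting the compared groups alone gave 188 against 365 between donor regions, 135 against 615 between host regions, 773 against 3449 for donor against BALB/c cortex, 4 against 456 in medulla and 313 against 594 for host against C57BL/6 cortex. Without a filter, 6427 passed for donor against BALB/c cortex and 997 in medulla, and with a strict filter 1669 in cortex. The strain counts of 1421 in cortex and 1307 in medulla were 3897 and 3485 without a filter, 351 and 372 with a strict filter, 816 and 839 after a second quantile normalization, and 661 and 110 alone. With a strict filter 234 passed between donor and 398 between host regions. The count between C57BL/6 regions was 22, with 38 under the block and 5 alone, and between BALB/c regions 10, with 40 under the block, 16 with a strict filter, 43 after a second quantile normalization and 1 alone. For donor against host it was 71 in cortex, with 41 (strict), 44 (second normalization) and 4 (alone), and 85 in medulla, with 1 alone. Of the regional differences, donor minus BALB/c gave 65, with 105 under the block and 30 with a strict filter, host minus C57BL/6 129, with 80 with a strict filter, and BALB/c minus C57BL/6 6, with 0 unfiltered and 3 alone. The cause of these shifts was not tested. Dim genes near the 40th percentile, such as Gstm7 and Gstt4, are measured with little signal.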

Other observations

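A probeset annotated to both Gstp1 and Gstp2 was left out of the comparisons. Its mean was 9.21 ± 0.07 in donor medulla, 9.17 ± 0.38 in donor cortex, 9.77 ± 0.43 in host medulla and 9.10 ± 0.21 in host cortex (SD, n = 3 each). In homeostatic cells it was 8.60 ± 1.19 in BALB/c medulla, 8.69 ± 0.31 in BALB/c cortex, 9.15 ± 0.60 in C57BL/6 medulla and 9.03 ± 0.62 in C57BL/6 cortex (SD, n = 4 each).

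The second probeset of Gstm3, whose mean over all arrays was 7.54, ran apart from the kept one. It averaged 7.30 ± 0.31 in donor cortex (SD, n = 3), against 7.87 ± 0.37 in BALB/c cortex (SD, n = 4), the opposite order to the kept probeset.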
